A study of Mus musculus with 12 samples.

Results

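The genes described here encode aggrecan and 9 other noncollagenous components of cartilage matrix, followed through a culture that takes cartilage progenitors from a chondrogenic to an osteogenic medium. The genes, chosen by name, are Acan, Hapln1, Comp, Matn1, Matn2, Matn3, Matn4, Cilp, Chad and Ucma, 10 of the 28244 genes listed. All 10 passed the filter on low values (log2 of 1 or more in 3 or more of the libraries) and were tested together with the other genes that passed, 17674 in all.

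RNA came from pellets of mesenchymal progenitors of C57/BL6 mouse pups, 5 or 6 days old, which were freed by collagenase from the heads and condyles of femurs and tibiae. Every pellet spent 7 days in chondrogenic medium. The groups are D7 (0 days of osteogenic medium), D8 (1 day), D10 (3 days) and D28 (21 days), with 3 libraries each and no transgene or knockout in any of them. No library was kept in chondrogenic medium beyond day 7, so the change of medium and the time in culture cannot be told apart. The labels do not say whether the 3 replicates of a time point came from separate cell preparations, and p-values therefore measure only the spread between these libraries, which may be technical. A pellet holds a mixture of cells, and in such bulk RNA fewer cells of a type and less RNA per cell cannot be told apart.

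Aggrecan, the product of Acan, is a large proteoglycan whose sulfated chains hold water and let cartilage resist compression. It binds hyaluronan, and the link protein encoded by Hapln1 locks that bond, so that many aggrecan molecules line up along 1 hyaluronan strand. Around these aggregates, COMP, the matrilins and chondroadherin join collagen fibrils, proteoglycans and cells to each other, CILP is a secreted protein best known from the middle zone of articular cartilage, and UCMA is a small secreted protein rich in Gla residues and typical of growth cartilage.

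Levels are given as the log2 of the equalized read count plus 1, as deposited, with no correction for gene length. The equalization put all libraries on nearly one set of values by rank, each library's unlogged total was between 25529105 and 25530208, and original library totals are not kept. A value of 3 reads, which is lower in a deeper library, stood between 1.97 and 2.46 on the log2 scale at D7, 1.87 and 2.17 at D8, 2.44 and 2.87 at D10 and 1.5 and 1.54 at D28. The D28 libraries were thus the deepest by this measure and D10 replicate 1 the shallowest, and the part of depth in the results was not tested. The lowest value of any of the 10 genes was 6.39, for Matn4 at D10, so none of them rests on a few reads. The level of 3 reads speaks of counting error alone, because without molecular identifiers several reads can stem from 1 molecule. A gene was called higher or lower where its log2 fold change was 1 or more in either direction and limma's two-sided moderated test gave an adjusted p (Benjamini-Hochberg, over all genes tested) under 0.05.

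The cartilage matrix genes went down together within 3 days of osteogenic medium, and 8 of the 10 were higher again at D28 than at D10. At D10 against D7, 9 of the 10 were lower and 0 higher, where 10.4% of all tested genes were lower and 8.5% higher. The exception was Matn2, with a log2 fold change of -0.33. From D10 to D28, 8 of the 10 rose and 0 fell, against 13.8% of all tested genes higher and 13.7% lower, and the 2 that did not pass the test were Cilp and Chad. The median log2 fold change of the 10 genes was -1.93 for D10 against D7 and 2.16 for D28 against D10, while the medians over all tested genes were 0.05 and -0.10. These comparisons share the D10 libraries, so the fall and the return are not independent of each other.

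Little of the fall was seen after 1 day. At D8 against D7 only Matn3 was called, as lower, and 0 were higher, where 3.81% of all tested genes were lower and 3.23% higher. The D7 and D8 libraries did not overlap for 4 genes, Matn3, Matn4, Cilp and Chad, each lower at D8, as was so for 15.9% of all tested genes. The count of 1 was 2 without D7 replicate 2, D7 replicate 3 or D8 replicate 1 and 3 without D8 replicate 3, as Matn4 or Cilp or both passed the fold threshold. Between D8 and D10, in contrast, 9 of the 10 fell and 0 rose, against 5.58% of all tested genes lower and 4.08% higher. The ends of the protocol split the group. At D28 against D7, 3 genes were higher (Matn1, Matn2 and Ucma), 2 were lower (Cilp and Chad) and 5 passed in neither direction (Acan, Hapln1, Comp, Matn3 and Matn4), where 8.63% of all tested genes were higher and 8.66% lower. The combination of a lower level at D10 than at D7 and a higher level at D28 than at D10 was found in 7 of the 10 genes and in 6.19% of all tested genes. In 8 of the 10, all but Cilp and Chad, every D10 library lay below all 9 other libraries, which held for 9.26% of all tested genes. The mean was lowest at D10 in these 8, as it was in 27.6% of all tested genes.

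**Figure D1:**
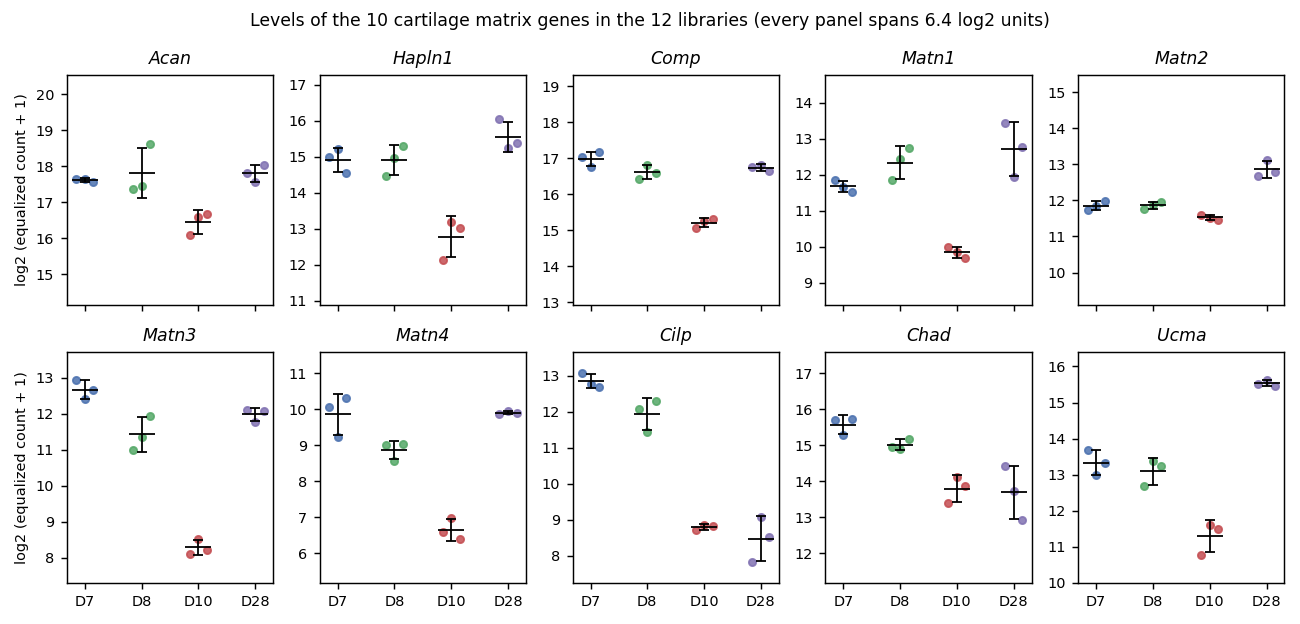
Log2 level of each of the 10 genes in the 12 libraries, 1 panel per gene and 1 point per library, with a bar at the mean of the 3 libraries of a time point and whiskers of 1 SD. Every panel spans the same number of log2 units. The D10 points lie below all others in 8 panels, against 9.26% of all tested genes, while Cilp and Chad stay low at D28.

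**Figure D2:**
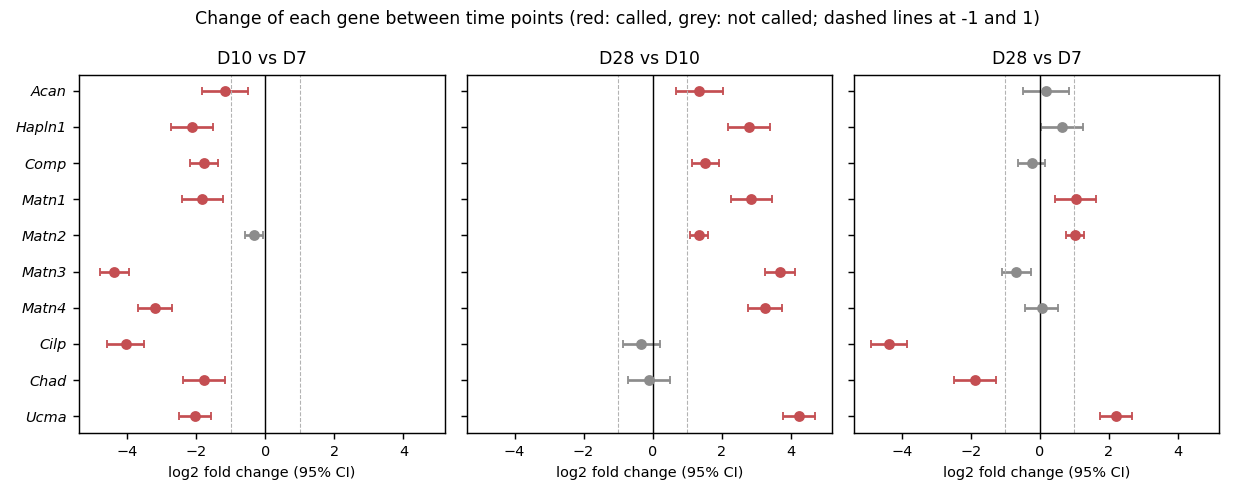
Log2 fold change of each gene with its 95% confidence interval from limma in 3 of the comparisons, in red where called and in grey where not. In D10 against D7 all points lie left of 0 and Matn2 alone is grey, and in D28 against D7 Cilp lies farthest left (-4.37) and Ucma farthest right (2.21).

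Because these genes moved together, their promoters were read for 4 short motifs. RefSeq windows of GRCm38.p6, from 250 bases before to 50 bases after the annotated start, matched 8 of the 10 genes in 9 windows (Matn4 has 2), and Comp and Matn2 were not matched. The letters TGTGGT on either strand, the core bound by RUNX factors, the regulators of hypertrophy and bone formation, were found in 4 of the 9 windows, those of Hapln1, Matn1, Cilp and Ucma. They are in 16.8% of all 32851 windows of this length. These 4 windows follow, 5′ to 3′ on the strand of the gene, which is the plus strand for each, with the RUNX letters in capitals and, in Ucma, the AP-1 letters as well.
Hapln1 (chr13:89540386-89540685): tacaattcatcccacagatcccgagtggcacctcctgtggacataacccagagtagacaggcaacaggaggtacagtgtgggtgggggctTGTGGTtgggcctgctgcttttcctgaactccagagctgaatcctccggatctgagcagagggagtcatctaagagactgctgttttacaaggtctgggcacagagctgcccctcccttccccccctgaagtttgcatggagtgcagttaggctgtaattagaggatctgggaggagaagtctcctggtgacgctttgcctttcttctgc
Matn1 (chr4:130944135-130944434): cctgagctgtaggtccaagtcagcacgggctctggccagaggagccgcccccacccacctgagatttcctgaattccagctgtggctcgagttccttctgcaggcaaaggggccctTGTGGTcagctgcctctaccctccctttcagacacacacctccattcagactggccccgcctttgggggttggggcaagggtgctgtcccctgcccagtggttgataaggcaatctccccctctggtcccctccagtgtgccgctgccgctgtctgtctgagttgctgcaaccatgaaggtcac
Cilp (chr9:65264930-65265229): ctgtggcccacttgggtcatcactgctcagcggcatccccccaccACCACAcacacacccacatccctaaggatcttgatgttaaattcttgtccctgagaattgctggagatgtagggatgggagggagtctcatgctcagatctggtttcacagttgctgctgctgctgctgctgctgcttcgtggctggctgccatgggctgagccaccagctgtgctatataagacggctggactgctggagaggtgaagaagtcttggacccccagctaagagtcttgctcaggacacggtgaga
Ucma (chr2:4975872-4976171): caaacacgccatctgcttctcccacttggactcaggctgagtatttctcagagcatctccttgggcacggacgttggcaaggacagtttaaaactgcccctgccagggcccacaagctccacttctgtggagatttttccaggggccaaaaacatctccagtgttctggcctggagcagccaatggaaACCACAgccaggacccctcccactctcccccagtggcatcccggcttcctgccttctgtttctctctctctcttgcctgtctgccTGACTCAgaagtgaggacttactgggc
The RUNX letters begin at position -160 in Hapln1, -134 in Matn1, -205 in Cilp and -62 in Ucma, counted from the annotated start and negative before it, and in Cilp and Ucma they read ACCACA, the same letters on the other strand. The 4 genes did not move alike after D10, since Hapln1, Matn1 and Ucma rose to D28 and Cilp did not. The AP-1 letters TGACTCA or TGAGTCA were in 1 of the 9 windows, at position 23 of Ucma, and in 5.2% of all windows. The letters TATAAA were in 1 of the 9, at position -28 of Chad, and in 13.6% of all windows. The core ACAAAG read by SOX factors was on neither strand of the 9 windows, against 18.7% of all windows. None of these motifs overlap each other in the windows shown. A match is a description of letters and not a site that was measured, and the absence of letters from a window of this length says nothing of the factor.

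By read count, aggrecan was among the leading transcripts of the pellets throughout. Acan (chr7:79053483-79115099, plus strand, GRCm38) read 17.65, 17.65 and 17.56 in the D7 libraries and 17.38, 17.46 and 18.61 at D8. It read 16.08, 16.58 and 16.69 at D10 and 17.82, 17.56 and 18.02 at D28. The D10 libraries were lowest and did not overlap any other time point, whereas D7, D8 and D28 overlapped. Ranked by level within a library, Acan stood at 8 or 9 at D7, between 18 and 29 at D10 and between 6 and 9 at D28.

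The log2 fold change of Acan was -1.17 at D10 against D7 (SE 0.32, limma adjusted p = 0.0077) and 1.35 at D28 against D10 (SE 0.32, limma adjusted p = 0.0021). Neither D8 (0.19, limma adjusted p = 0.73) nor D28 (0.18, 95% confidence interval -0.50 to 0.85, limma adjusted p = 0.70) passed the test against D7. Both falls of Acan rest on single libraries for their call. Without D10 replicate 1 the change from D7 was -0.99 (limma adjusted p = 0.031), and without D8 replicate 3, the library at 18.61, the change from D8 to D10 went from -1.37 to -0.97 (limma adjusted p = 0.019). At such ranks the size of a change is set by the few values that the equalization left at the top of the scale, and Acan took only 10 distinct values over the 12 libraries. The same holds for Comp, also with 10 distinct values, and so for the differences between Comp and Acan. Differences of Hapln1 or Ucma from Acan carry the limit of Acan as well.

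Hapln1, the link protein gene, changed by more than Acan from D7 to D10 and from D10 to D28. This difference was not tested. Hapln1 (chr13:89539796-89611652, plus strand) read 14.99, 15.21 and 14.54 at D7 and 14.46, 14.97 and 15.31 at D8. It then read 12.13, 13.18 and 13.03 at D10 and 16.04, 15.25 and 15.38 at D28. D7 and D8 overlapped, all D10 libraries were lower, and all D28 libraries were above those of D7. The fall to D10 was -2.13 against D7 (SE 0.29, limma adjusted p = 2.5e-05), a 4.39-fold drop. The return to D28 was 2.78 (SE 0.29, limma adjusted p = 8.8e-07). At D28 Hapln1 stood 0.65 above D7 (95% confidence interval 0.04 to 1.25), which did not pass the test (limma adjusted p = 0.089) although the libraries did not overlap.

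Since link protein and aggrecan act as partners, their balance was taken per kilobase of exon, with 7469 exonic bases for Acan and 5902 for Hapln1. Hapln1 was below Acan in every library. The difference on the log2 scale per kilobase averaged -2.37 ± 0.29 (SD, n = 3) in the D7 libraries, -2.56 ± 0.41 in those of D8, -3.33 ± 0.28 in those of D10 and -1.90 ± 0.43 in those of D28. The mean difference put Hapln1 at 19.3% of the Acan level at D7, 9.92% at D10 and 26.7% at D28. The D10 differences, between -3.62 and -3.06, lay below those of all other libraries, while the D28 libraries overlapped D7.

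COMP, a pentameric thrombospondin that helps collagen fibrils assemble, went the same way as aggrecan in each step that was called. Comp (chr8:70373558-70382066, plus strand) read 17.03, 16.76 and 17.16 at D7, 16.43, 16.82 and 16.58 at D8, 15.06, 15.26 and 15.31 at D10 and 16.76, 16.82 and 16.64 at D28. D10 stood apart and the other time points overlapped. The change was -1.77 at D10 against D7 (SE 0.19, limma adjusted p = 2.3e-06), 1.53 at D28 against D10 (SE 0.19, limma adjusted p = 5.5e-06) and -0.24 at D28 against D7 (95% confidence interval -0.64 to 0.16, limma adjusted p = 0.34). Per kilobase of exon, Comp was level with Acan or slightly above it at each time point, with mean log2 differences of 0.69, 0.13, 0.09 and 0.27 from D7 to D28, and the 3 libraries of D7 were all positive while the other time points each held both signs.

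The 4 matrilins, oligomeric adaptors built from von Willebrand factor A domains, behaved differently from each other. Matrilin-1 and matrilin-3 are cartilage forms that can assemble with each other, while matrilin-2 and matrilin-4 are also made in many other connective tissues.

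Matn3 (chr12:8947929-8972028, plus strand) had, with Cilp, the widest range of time point means among the 10 genes, 4.37 log2 units in each. It read 12.94, 12.40 and 12.65 at D7, 10.99, 11.34 and 11.93 at D8, 8.11, 8.53 and 8.22 at D10 and 12.09, 11.77 and 12.07 at D28. The D7 libraries were above all others, the D10 libraries below all others, and D8 and D28 overlapped. It was the only one of the 10 called at D8 (-1.24 against D7, SE 0.20, limma adjusted p = 0.00043). At D10 it was 20.7-fold below D7 (-4.37, SE 0.20, limma adjusted p = 7.4e-10), and by D28 it had risen 12.9-fold (3.69, SE 0.20, limma adjusted p = 7.7e-10). At D28 against D7 the change was -0.69 (95% confidence interval -1.11 to -0.26), with a limma adjusted p of 0.013 but under the fold threshold.

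Matn1 (chr4:130944385-130955475, plus strand) read 11.85, 11.66 and 11.53 at D7 and 11.84, 12.43 and 12.75 at D8. It dropped to 10.00, 9.85 and 9.71 at D10 and read 13.43, 11.93 and 12.77 at D28. D10 was again apart and below, D8 overlapped D7, and every D28 library was above every D7 library. The change was -1.83 at D10 against D7 (SE 0.28, limma adjusted p = 9e-05) and 2.86 at D28 against D10 (SE 0.28, limma adjusted p = 5.3e-07). The rise over D7 at D28 (1.04, SE 0.28, limma adjusted p = 0.0086) depended on single libraries. It was 0.68 without D28 replicate 1, the library at 13.43, and 0.96 without D7 replicate 3, both under the fold threshold.

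Matn4 (chr2:164389393-164405160, minus strand) had the lowest level of the 10 genes per kilobase of exon at D7, D8 and D10. It read 10.05, 9.23 and 10.30 at D7, 9.0, 8.57 and 9.04 at D8, 6.58, 6.99 and 6.39 at D10 and 9.88, 9.96 and 9.88 at D28. The 3 D8 libraries lay below the 3 of D7, the D10 libraries lay lower again, and D28 fell within the D7 range. It was 9.21-fold lower at D10 than at D7 (-3.2, SE 0.23, limma adjusted p = 4.5e-08) and 9.53-fold higher at D28 than at D10 (3.25, SE 0.23, limma adjusted p = 1.5e-08), which left it 0.05 from D7 (95% confidence interval -0.44 to 0.54). The D8 change of -0.99 (limma adjusted p = 0.0060) missed the fold threshold and passed it, at -1.31, without D7 replicate 2. Matn4 shares 2020 bases with Rbpjl on the opposite strand. Rbpjl stood at means of 4.79, 3.81, 1.06 and 4.44 at D7, D8, D10 and D28, far below Matn4 in read count and likewise lowest at D10, and since the strand setting of the counting is not stated, reads of the 2 genes cannot be told apart there.

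Matn2 (chr15:34306677-34436273, plus strand) was the steadiest of the 10 up to D10. It read 11.73, 11.85 and 11.98 at D7, 11.77, 11.86 and 11.97 at D8, 11.60, 11.51 and 11.47 at D10 and 12.67, 13.13 and 12.80 at D28. The D10 libraries were below those of D7 and D8, but by less than the fold threshold (-0.33 against D7, SE 0.12, limma adjusted p = 0.037). At D28 it was above all other libraries, by 1.34 over D10 (limma adjusted p = 1.8e-07) and by 1.01 over D7 (SE 0.12, limma adjusted p = 6.9e-06). That last value is just past the threshold and was 0.95 without D7 replicate 1 and 0.88 without D28 replicate 2.

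**Figure D3:**
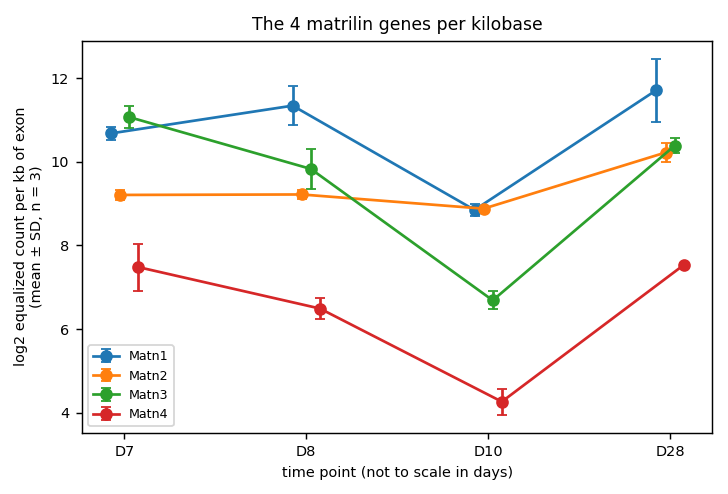
Mean log2 equalized count per kilobase of exon of the 4 matrilin genes at each time point, with whiskers of 1 SD over 3 libraries. Matn3 is uppermost at D7 (11.07) and drops to 6.69 at D10, where Matn2 (8.88) and Matn1 (8.85) lie together above it.

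These courses changed the make-up of the family. Per kilobase of exon, Matn1 minus Matn3 averaged -0.39 ± 0.21 in the D7 libraries, 1.51 ± 0.15 in those of D8, 2.16 ± 0.29 in those of D10 and 1.33 ± 0.59 in those of D28 (log2, SD, n = 3). It was negative in the 3 D7 libraries and positive in the 9 others, so of this pair Matn3 was the higher at D7 and Matn1 at every later time. Matn2 was 27.5% of the Matn3 level at D7 (-1.86 ± 0.35), 4.56 times that level at D10 (2.19 ± 0.25) and near it at D28 (-0.16 ± 0.41, with both signs among the libraries). Matn4 was the lowest matrilin per kilobase at every time point, between 4.27 at D10 and 7.54 at D28.

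UCMA, after the shared fall, ended far above its starting level. Ucma (chr2:4976122-4985748, plus strand) read 13.69, 12.99 and 13.31 at D7, 12.67, 13.36 and 13.22 at D8 and 10.77, 11.61 and 11.48 at D10. At D28 it read 15.52, 15.62 and 15.47. D7 and D8 overlapped, D10 was below both, and the D28 libraries lay close together and above all the rest. Ucma fell 4.11-fold from D7 to D10 (-2.04, SE 0.22, limma adjusted p = 2.9e-06) and then rose 19.0-fold (4.25, SE 0.22, limma adjusted p = 5.3e-10). It was the only one of the 10 more than 2 log2 units above D7 at D28 (2.21, SE 0.22, limma adjusted p = 1.5e-06). Ucma also had both RUNX and AP-1 letters in its promoter window, the only one of the 9 to hold both.

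Ucma minus Acan, per kilobase of exon, was -1.21 ± 0.35 at D7, -1.65 ± 0.65 at D8 and -2.08 ± 0.17 at D10, and 0.81 ± 0.31 at D28 (log2, SD, n = 3). It was positive in all 3 D28 libraries and negative in the 9 others. On this scale Ucma went from 23.6% of the Acan level at D10 to 1.76 times that level at D28.

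CILP and chondroadherin, a small leucine-rich protein that binds collagen and cell-surface integrins, were the 2 that did not come back. Cilp (chr9:65265180-65280605, plus strand) read 13.07, 12.78 and 12.69 at D7 and 12.06, 11.42 and 12.28 at D8. It read 8.72, 8.87 and 8.82 at D10 and 7.83, 9.08 and 8.51 at D28. Each of D7 and D8 stood apart, D7 the higher, while D10 and D28 overlapped far below them. The fall to D10 was 16.5-fold (-4.05, SE 0.25, limma adjusted p = 1.2e-08) and D28 was 20.7-fold below D7 (-4.37, SE 0.25, limma adjusted p = 4.5e-09). Between D10 and D28 the change was -0.33 (95% confidence interval -0.86 to 0.20, limma adjusted p = 0.29). The D8 change of -0.92 (limma adjusted p = 0.016) missed the fold threshold and passed it without D8 replicate 3 (-1.10) or without D7 replicate 3 (-1.0).

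Chad (chr11:94565047-94569127, plus strand) read 15.72, 15.28 and 15.73 at D7 and 14.96, 14.91 and 15.19 at D8. It read 13.40, 14.13 and 13.87 at D10 and 14.42, 13.73 and 12.94 at D28. The D7 libraries were above all others, and D10 and D28 overlapped, D28 with the wider spread. The log2 fold change was -1.77 at D10 against D7 (SE 0.28, limma adjusted p = 0.00012), -0.10 at D28 against D10 (95% confidence interval -0.70 to 0.49, and 0.03 with scaling by median of ratios) and -1.88 at D28 against D7 (SE 0.28, limma adjusted p = 7.7e-05). Chad lies wholly inside Acsf2 on the opposite strand, whose means were 10.01, 10.21, 9.52 and 9.73 at D7, D8, D10 and D28. In read count Acsf2 was thus far below Chad at each time point, and its means moved by less.

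Compared per kilobase of exon, the order of the 10 genes changed over the protocol. At D7 the order of mean log2 levels per kilobase ran Comp (15.41), Chad (14.83), Acan (14.72), Ucma (13.51), Hapln1 (12.35), Matn3 (11.07), Cilp (10.76), Matn1 (10.68), Matn2 (9.21) and Matn4 (7.49). Chad and Acan, Matn3 and Cilp, and Cilp and Matn1 overlapped there, and the other neighbours did not. At D10 Comp (13.64), Acan (13.55) and Chad (13.05) still led with overlapping libraries, ahead of Ucma (11.47) and Hapln1 (10.22). At D28 Ucma (15.71) came first without overlap, followed by Comp (15.17) and Acan (14.90), which overlapped, and Cilp (6.38) came last. Hapln1 (13.00) and Chad (12.95) overlapped at D28, as did Chad and Matn1 (11.71).

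Together the 10 genes took 1.74% of the summed equalized counts at D7 (range 1.66% to 1.82%), 1.73% at D8 (1.31% to 2.37%), 0.620% at D10 (0.491% to 0.693%) and 1.85% at D28 (1.68% to 1.96%). The D10 libraries were thus below all others, and the high D8 value belonged to D8 replicate 3, in which Acan alone took 1.57%. Within this sum Acan held 45.4% on average at D7 and 48.7% at D28. The share of Ucma within the sum was 2.34% at D7, 1.61% at D10 and 10.2% at D28, and that of Chad went from 11% at D7 to 3.05% at D28. The total at D28 was therefore close to that at D7 with a different composition.

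**Figure D4:**
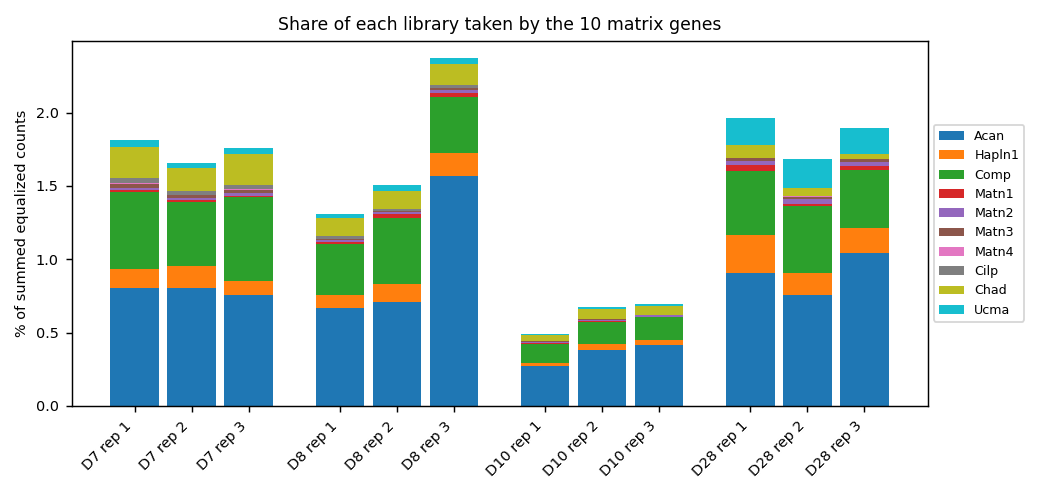
Share of each library's summed equalized counts taken by the 10 genes, in percent, as bars stacked by gene for the 12 libraries, without length correction. The 3 D10 bars are the lowest (0.491% to 0.693%), and the Ucma segment is visibly wider in the D28 bars.

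The other genes of the cartilage matrix give the setting for these courses. From each list the 4 genes with the highest mean are named. A few more, a collagen partner, the chief aggrecanases, a protease gene of low level and a paralog, were added after their values were seen. Of 16 tested genes for cartilage collagens and other matrix proteins, 11 were lower and 0 higher at D10 against D7, and 9 were higher and 2 lower at D28 against D10. At D28 against D7, 2 were higher and 6 lower. Their median log2 fold change was -1.76 for D10 against D7 and 1.20 for D28 against D10. Over all tested genes, 10.4% were lower and 8.5% higher at D10 against D7, and 13.8% higher and 13.7% lower at D28 against D10. At D28 against D7, 8.63% of all tested genes were higher and 8.66% lower. The counts of this list, and of the other lists and markers below, stand beside these shares.

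Among the collagens of the list, Col2a1, the chain of collagen II, had the highest read count of all genes in every D7, D8 and D28 library (20.92) and the second in every D10 library (19.87). That difference of -1.06 did not pass the test (limma adjusted p = 0.16), and its size is the gap between the uppermost values of the scale. Col2a1 had the same value in the 3 libraries of each time point (SD 0). The SE of 0.58 thus came from limma's variance prior over all genes, and the p measures no spread of this gene. Col11a1, a chain of collagen XI, was not called at D10 against D7 (-0.19, limma adjusted p = 0.54) and was lower at D28 than at D7 (-1.22, limma adjusted p = 0.00054). Col11a2, another chain of collagen XI, was not called in either of these comparisons, with changes of -0.39 and -0.95. Col9a2, a chain of collagen IX, fell by 1.57 on the log2 scale at D10 against D7 (limma adjusted p = 4.2e-06) and rose by 1.13 to D28 (limma adjusted p = 6.3e-05), the course of Comp and Acan. Collagen IX carries binding sites for COMP and matrilin-3, and its Col9a1 chain was among the genes added: it fell to D10 (-1.65, limma adjusted p = 4.5e-06) and was as low at D28 against D7 (-1.71, limma adjusted p = 3.3e-06), the course of Chad.

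**Figure D5:**
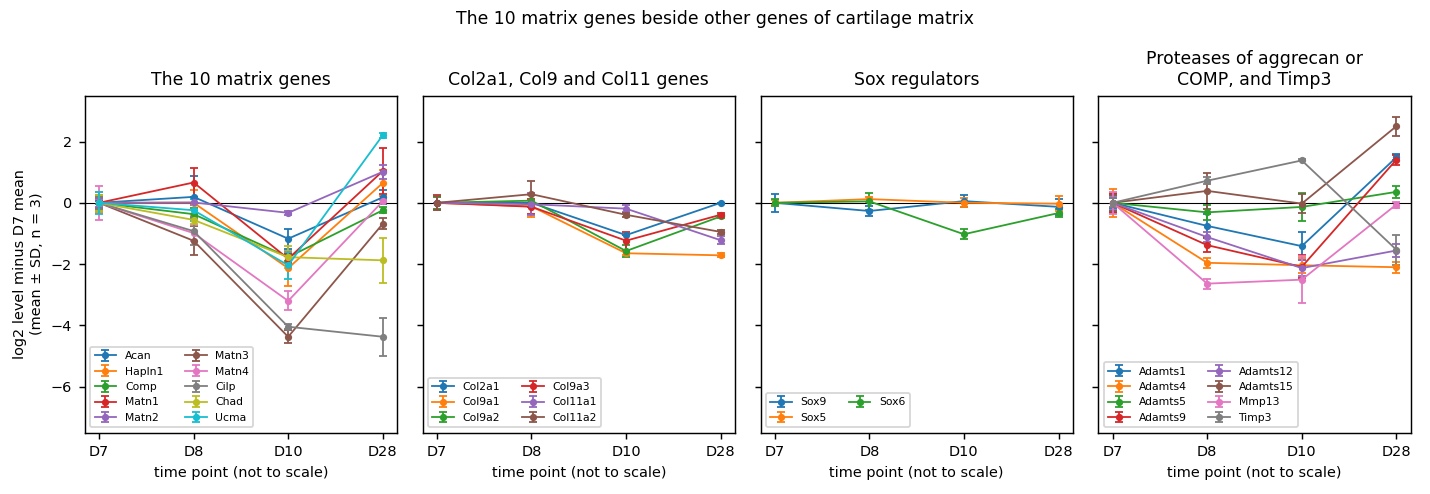
Mean log2 level minus the D7 mean of the same gene at each time point, with whiskers of 1 SD over 3 libraries, for the 10 genes and for 3 groups of other genes. Sox9 and Sox5 stay near 0 at every time point while most of the 10 genes dip at D10, and Timp3 is uppermost in its panel at D10 (1.38 above D7).

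Sox9, which with Sox5 and Sox6 drives transcription of Acan, Matn1 and other cartilage genes, did not dip with them. Its means were 12.38, 12.11, 12.44 and 12.25 at D7, D8, D10 and D28, and the libraries of all time points overlapped. The change at D10 against D7 was 0.06 (95% confidence interval -0.29 to 0.40, limma adjusted p = 0.82). Sox5 likewise had means of 9.83, 9.96, 9.84 and 9.81 and no call. Sox6 was lower at D10 than at D7 (-1.03, limma adjusted p = 2.8e-05) and its change of 0.69 to D28 stayed under the fold threshold. Of the 3 genes, 1 was thus lower at D10 against D7 and 0 higher, and 0 were called between D10 and D28.

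Of 15 tested genes for proteases and hyaluronidases that cut aggrecan, COMP or hyaluronan, and for their inhibitor, 5 were lower and 2 higher at D10 against D7, and 5 were higher and 3 lower at D28 against D10. The 2 higher at D10 were Timp3 and Adamts8, and both were among the 3 lower at D28. Adamts8 is near the level of 3 reads, with means of 0 at D7, 2.61 at D10 and 0.19 at D28. Timp3, the inhibitor of aggrecan-cutting ADAMTS enzymes, was called in the direction opposite to Acan from D7 to D10 and from D10 to D28. Its means were 15.40, 16.12, 16.78 and 13.86, a rise of 1.38 from D7 to D10 (limma adjusted p = 5.8e-05) and a change of -2.92 from D10 to D28 (limma adjusted p = 1.3e-08). At D28 against D7 it was lower (-1.53, limma adjusted p = 2.3e-05), where Acan was not called. Mmp13, a collagenase that also cuts aggrecan, was lower at D8 (-2.64, limma adjusted p = 1.5e-05) and D10 (-2.51, limma adjusted p = 3.7e-06) than at D7, and it was 2.45 higher at D28 than at D10. Adamts1 was lower at D10 (-1.41, limma adjusted p = 4e-05) and 1.49 higher at D28 than at D7 (limma adjusted p = 2.6e-05). Cemip, which takes part in the breakdown of hyaluronan, was called only between D10 and D28 (-1.32, limma adjusted p = 0.00034). The chief aggrecanases, added to the list's leaders, went apart: Adamts4 was already lower at D8 (-1.96, limma adjusted p = 1.3e-05) and was still lower at D28 against D7 (-2.10, limma adjusted p = 9.6e-07), while Adamts5 was called in none of the 5 comparisons.

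Of the 5 genes for hyaluronan synthesis and its receptor, 2 were higher and 1 lower at D10 against D7, and 0 were higher and 2 lower at D28 against D10. Has2, a synthase of the strand that aggrecan binds, fell by 1.10 on the log2 scale at D10 against D7 (limma adjusted p = 0.00034), and its change of 0.93 to D28 did not reach the fold threshold. Cd44, a hyaluronan receptor, was 1.20 higher at D10 than at D7 (limma adjusted p = 8.7e-07) and changed by -1.67 to D28 (limma adjusted p = 1.2e-08). Has1, with means of only 4.85 at D7 and 7.11 at D10, was called in the same directions as Cd44 (2.25 and -3.07). Ugdh, which makes a sugar precursor of these chains, had means of 12.02, 12.06, 11.70 and 11.95 and no call.

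The closest relatives of the 10 genes were counted in the same way. Of 11 tested paralogs, 8 were lower and 0 higher at D10 against D7, and 3 were higher and 2 lower at D28 against D10. Vcan, the aggrecan relative versican of looser matrices, was lower at D8 than at D7 (-1.22, limma adjusted p = 1.8e-05) and also lower at D28 than at D7 (-1.76, limma adjusted p = 7.9e-08). Among the thrombospondins, the family of COMP, Thbs2 fell by 2.25 on the log2 scale to D10 (limma adjusted p = 4.3e-08) and stood at -2.92 against D7 at D28, while Thbs1 was at -1.15 at D10 (limma adjusted p = 9.3e-05) and -0.44 at D28 (limma adjusted p = 0.064). Chadl, the relative of Chad, fell by 2.13 on the log2 scale to D10 (limma adjusted p = 3.9e-08) and rose by 2.22 to D28 (limma adjusted p = 9.4e-09), a return that Chad did not show. Cilp2, the relative of Cilp and an added gene, was at -1.09 at D10 against D7 (limma adjusted p = 7.4e-05) and changed by -4.36 from D10 to D28 (limma adjusted p = 1.4e-11), with means of 12.12, 11.03 and 6.67 at D7, D10 and D28. The differences between relatives were not tested.

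The genes with the course most like that of Acan were sought among 8836 genes with a mean level at or above the median, by the root mean square difference of centred log2 values over the 12 libraries. They were Map3k1 (0.19), Wwp2 (0.25), Bsg (0.27), Tns2 (0.27) and Pfkp (0.28). The nearest of the 10 genes was Comp (0.42), at place 166. For Matn3, whose range of means was level with that of Cilp and ahead of it only in the third decimal, they were Chrdl2 (0.31), Nog (0.41), Dpt (0.45), Klf2 (0.53) and Sox8 (0.53), and Matn4 came at place 6 (0.53). Chrdl2 and Nog encode secreted antagonists of bone morphogenetic proteins. Chrdl2 had means of 12.49, 11.40, 7.71 and 11.65 at D7, D8, D10 and D28, and Nog had 10.44, 9.02, 6.80 and 10.01. These are distances between courses in libraries of the same pellets, and they carry no test.

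Markers of cell types were read beside these results. The summed unlogged level of the 9 chondrocyte markers in the table (Acan, Hapln1 and Matn1 among them) lay between 2506243 and 2555422 at D7, 1218277 and 1277193 at D10, and 2376215 and 2471471 at D28, a sum led by Col2a1. The change of Col2a1 was not called, and its size is the gap between the uppermost values of the scale. The size of the change in the sum is set in part by that gap. Of the 9, 6 were lower and 0 higher at D10 against D7. Some markers of other cell types were called as well. The 5 tendon and ligament markers summed to between 58239 and 75864 at D7, 15789 and 20099 at D10, and 86699 and 87238 at D28. Fmod, which led this sum, was also counted above among the cartilage matrix genes. Of the 5, 4 were lower and 0 higher at D10 against D7, and 3 were higher (Tnmd, Fmod and Thbs4) and 2 lower (the tendon transcription factors Scx and Mkx) at D28 against D10. This is a list of cells that also make Comp, and it holds the COMP relative Thbs4. The 4 markers of the superficial zone and synovial lining summed to between 29386 and 37540 at D7, 54114 and 68025 at D10, and 4215 and 8366 at D28, a sum led by Prg4. At D10 against D7, 0 of the 4 were higher and 1 was lower (Erg, -2.15), and the rise of Prg4 (0.89) stayed under the fold threshold. At D28 against D7, 3 of the 4 were lower.

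The 4 adipocyte markers summed to between 3795 and 4474 at D7, 838 and 1316 at D10, and 39855 and 54375 at D28, where all 4 were higher than at D7. The 7 osteoblast markers summed to between 355992 and 560485 at D7, 106986 and 195723 at D10, and 172851 and 191704 at D28, a sum led by Col1a1. Of the 7, 4 were higher (Bglap, Bglap2, Dmp1 and Phex) and 3 lower (Sp7, Ibsp and Col1a1) at D10 against D7, and 4 were higher and 2 lower at D28 against D7. The 4 markers of hypertrophic chondrocytes summed to between 188422 and 232855 at D7, 211706 and 342547 at D10, and 61239 and 104414 at D28. Col10a1 led this sum at D7 and D10. At D10 against D7, 3 of the 4 were lower (Ihh, Mmp13 and Pth1r) and 0 higher, and Col10a1 was not called (0.83, limma adjusted p = 0.14). From D10 to D28, 3 of the 4 were higher (Ihh, Mmp13 and Pth1r) and 1 lower (Col10a1, -3.82). The 5 skeletal muscle markers went from between 2314 and 2926 at D7 to between 66 and 123 at D28. Endothelial markers summed to at most 177 in any library, macrophage and blood markers to between 804 and 4412, and Schwann and neural markers to between 1950 and 10101. No marker gene in the table was at 0 in all libraries. The part that changes in cell composition have in the courses of the 10 genes was not tested.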

How the data were processed

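RNA-seq values of 12 libraries, 3 each at D7, D8, D10 and D28, were re-analysed from 1 table of the whole series. According to the submitters' processing notes and the study's methods, reads of a stranded mRNA kit were trimmed (Trimmomatic 0.36), aligned (HISAT2), annotated (Cufflinks) and counted for each gene (HTSeq), then equalized and log2 transformed. The values that the authors deposited are therefore log2 values of the equalized count plus 1, 1 per library, with replicates not pooled. The notes name the mouse build GRCm38 while the supplementary methods name a human one, the table lists mouse symbols, and the strand setting of HTSeq is not given in the sources used here.

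Where 3 or more libraries of a gene reached a log2 value of 1, it entered a fit in limma 3.58.1 (R 4.3.3), with 1 coefficient per time point over all 12 libraries and a variance prior that followed the mean (8 residual and 7.23 prior degrees of freedom). Of the 28244 genes, 17674 were tested, 10570 failed the filter and 7935 of these were at 0 throughout. The fit was tested on simulated data for D10 against D7 over 17674 genes, where it found 92 of 100 genes changed by 1.5 and 98 of 100 changed by 3 (log2), with 5 false calls. Levels per kilobase are the unlogged values divided by the exonic length in GENCODE M21 on GRCm38, and promoter windows come from RefSeq on GRCm38.p6. The other tables and plots were made with pandas 2.3.3, matplotlib 3.10.9 and numpy 2.4.6 under Python 3.11.15. Only the lowest values of a library speak of its depth, and 3 reads stand there at 1.5 to 2.87.

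All 10 genes are named. From each list of other genes the 4 with the highest mean over the 12 libraries are named, and Col9a1, Adamts4, Adamts5, Adamts8 and Cilp2 were added after their values were seen. The genes and the lists were chosen with earlier results of these data known. Alternatives changed the filter, pseudocount, floor, scaling, replicate block, libraries in the fit, variance prior and call rule, and left out each library in turn. The labels give no sequencing batch or date.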

Additional observations from a re-analysis of the deposited data

How the results depend on the processing

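The numbers of the 10 genes called (1 at D8 against D7, 9 at D10 against D8, 9 at D10 against D7, 8 at D28 against D10 and 5 at D28 against D7) stayed within 1.5 times under 104 of the 115 settings run over the 5 comparisons. The exceptions at D8 against D7 were 2 with scaling by median of ratios (7.11% of all tested genes called), 3 with no fold threshold (21.0%) and 0 with a log2 fold change of at least 2 (2.2%). That stricter fold gave 5, 5, 5 and 2 in the other comparisons, where 3.01%, 7.59%, 11.9% and 7.67% of all tested genes were called. Leaving out each library in turn gave 1 to 3 at D8 against D7, 8 to 9 at D10 against D8, 8 to 9 at D10 against D7, 8 throughout at D28 against D10 and 4 to 5 at D28 against D7.

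With the replicate block the numbers were 1, 9, 9, 8 and 5, and no call of the 10 genes changed. Same-numbered libraries deviated together only weakly (correlations from -0.18 to 0.26, 2 of 18 above 0.1), so the numbers were not taken to pair them.

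Of 650 values of single genes under alternatives, in which the lowest and the highest value stand for the libraries left out, 611 kept their direction and side of the threshold, 23 lost and 8 gained a call and 8 changed sign, all of these from values that were not called. With each library left out counted singly, 25 calls were lost and 11 gained. At D8 against D7, leaving out 1 library moved Acan between -0.20 and 0.41, Hapln1 between -0.20 and 0.23 and Matn2 between -0.049 and 0.075, and scaling by median of ratios gave -0.049 for Hapln1 and -0.040 for Matn2. Chad at D28 against D10 was 0.028 with that scaling and between -0.46 and 0.27 with a library left out, and Matn4 at D28 against D7 lay between -0.27 and 0.27 with a library left out. The call of Acan at D10 against D8 was lost with only those time points in the fit (limma adjusted p = 0.051). The rise of Matn1 at D28 against D7 was lost there too (0.057), with low values raised to the 3-read level (0.050) and under the study's own rule (unadjusted p = 0.080). In the other cases the cause was not tested. Scaling by median of ratios moved the median of all genes at D28 against D10 from -0.10 to 0.01, so changes in that comparison can be read against a shift of that size. Equalized values keep no library totals, which limits what can be said of depth.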
